A study of Mus musculus with 77 samples.

Results

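The regions described here are 1394 bins of 80 kb that were late to replicate in both 4-cell and 8-cell mouse embryos produced by SCNT, somatic cell nuclear transfer. They were chosen among the autosomal bins by the state of mid-S cells, that is cells in which 30 to 70% of the called autosomal bins had been replicated. Of 30890 autosomal bins, 29620 were called in at least 12 mid-S cells of the 4-cell stage and in at least 20 of the 8-cell stage. A bin was taken as constantly late when at most 10% of the mid-S cells that called it had replicated it, at each stage separately. The 1394 bins that met this at both stages, called the late bins from here on, cover 111.52 Mb and are 4.71% of the bins kept.

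Each sample is 1 blastomere, and single-cell Repli-seq reads from the copy number of its DNA which bins it had already copied. There are 28 cells of 14 4-cell embryos and 49 cells of 12 8-cell embryos. All embryos were of the strain BDF1, were reconstructed by SCNT, in which a somatic nucleus takes the place of that of the oocyte, and were grown in vitro in CZB medium, so no fertilized or untreated control stands beside them. The labels do not give the donor cell type. Blastomeres were taken out by micromanipulation and the DNA of each went through whole-genome amplification. The deposited profiles give 1 for a replicated bin, -1 for one not replicated and 0 for no call, on genome build mm9. Read depth per cell is unknown from these files, so values carry no counting interval, and the embryo is the replicate because cells of an embryo are not independent.

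A mammalian chromosome is copied in domains, each of which tends to fire its origins at a characteristic time of S phase. Domains copied late are, in most cell types, poor in genes, rich in A and T and attached to the nuclear lamina, while gene-rich, transcribed DNA is copied early. In differentiated cells the order is steep and shared between cells, and in the cleavage embryo it is known to be built up over the first divisions.

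The mid-S values that chose the bins are a description and support nothing. The 4-cell stage had 18 mid-S cells of 9 embryos and the 8-cell stage 28 cells of 10 embryos. By the same limit 1917 bins, 6.47% of those kept, were late in 4-cell embryos and 6316 bins, 21.3%, were late in 8-cell embryos. The late bins were thus 72.7% of the first set and 22.1% of the second. The sizes of these sets depended on the cells used, as given below, so their difference is not read as one of stage. The mid-S cells also differed in progress, having copied a median of 59.7% (4-cell) and 51.9% (8-cell) of the remaining bins. With 18 cells the limit let a bin be replicated in at most 1 cell of the 4-cell stage. Of the late bins, 404 were replicated in 0 of these cells and 990 in 1. At the 8-cell stage 655 were replicated in 0 cells, 440 in 1 and 299 in 2, and 213 were replicated in no mid-S cell of either stage. The late bin nearest the limit had been replicated in 6.67% of 4-cell and 8.33% of 8-cell mid-S cells. Just outside were 1354 bins that were late at the 8-cell stage but replicated in 2 of the 4-cell cells, which is 11.1% where all 18 called them. A further 179 bins were late at the 4-cell stage and replicated in 3 cells of the 8-cell stage, from 10.7%. Calls were close to complete: 1244 late bins were called in all mid-S cells of the 4-cell stage and 1088 in all those of the 8-cell stage.

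A small number of cells used up the allowance of 1 cell at the 4-cell stage. Of the 990 replicated calls there, 227 came from 1 cell of 4-cell embryo 6, and 79.4% came from the 8 mid-S cells of the later of the 2 batches in the authors' annotation. That batch holds all 8-cell cells, whereas the earlier one holds 4-cell cells alone. Earlier and later here mean the sort order of the batch labels, and what differs between the batches is not known here. At the 8-cell stage 280 of 1038 replicated calls, or 26.98%, came from 1 cell of embryo 6, at a replication score of 68.1%. The median mid-S cell had replicated 2.04% of the late bins in 4-cell and 1.29% in 8-cell embryos, and the highest cells 16.3% and 20.1%.

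Lateness was also read in embryos that took no part in the choice, by choosing the bins again without each embryo in turn. In the 8-cell embryo left out, the bins chosen from the others were replicated to a median of 3.33%, from 0.404% to 13.5% over 10 embryos. The remaining bins of the same embryos stood at a mean of 52.0%, and the lowest of them at 39.8%, so the 2 ranges did not overlap. In the 4-cell embryo left out, the median was 7.01%, from 0.994% to 34.8% over 9 embryos, against a mean of 57.02% in the remaining bins. The 4 embryos of the later batch stood at 34.8%, 14.4%, 28.4% and 10.4%, and the 5 of the earlier batch between 0.994% and 7.01%. The batches did not overlap, but neither did their mean replication scores, which were 56.5% to 68.5% in the later and 38.2% to 54.9% in the earlier batch. Over these embryo means batch and score cannot be told apart. Single cells did overlap in score, from 56.5% in the later batch and up to 61.9% in the earlier, and were not compared at equal score. The longest stretches of 1 state were 87.8, 86.1, 194 and 21.4 Mb in later-batch embryos 1, 3, 6 and 7. They were at most 22.2 Mb in the earlier batch.

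How many bins are called constantly late depended on which 4-cell cells were used. Some profiles hold stretches of 40 Mb or more in which every called bin has 1 state, which cover large parts of whole chromosomes. Without the mid-S cells that hold such a stretch, 13 cells of the 4-cell stage and 17 of the 8-cell stage were left. The 5 cells of the 4-cell stage left out were all of the later batch, so this choice also changed the mix of batches. With the cells left, 3057 bins met the same limit. These were 10.3% of the bins kept and included 1219 of the 1394, or 87.4% of the late bins and 39.9% of the larger set. With fewer cells the limit of 10% still lets 1 cell of the 4-cell stage through, so it is looser by construction. A limit of 5% lets no cell of the 4-cell stage through. At that limit the same cells gave 754 bins, of which 582 were among the 1394. Taken stage by stage, the cells without a long stretch gave 4824 late bins in 4-cell and 6480 in 8-cell embryos at 10%. All mid-S cells had given 1917 and 6316. How far the looser limit, the long stretches or the mix of batches set the lower 4-cell count was not tested. With the earlier batch alone at the 4-cell stage 4807 bins met the limit, and with the later batch alone 679. The limit lets 1 of the 10 earlier-batch cells replicate a bin but none of the 8 later-batch cells. These counts are thus not at equal tolerance, and how far the batch set their difference was not tested. Leaving out 4-cell embryo 1 gave 2350 bins and leaving out 4-cell embryo 6 gave 2192.

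The late bins were spread unevenly over the autosomes. Chromosome 3 had the highest share, with 153 of 1956 kept bins or 7.82%, followed by chromosome 4 with 143 bins or 7.69% and chromosome 18 with 83 bins or 7.57%. Chromosome 19 held 0 of 726 kept bins, chromosome 11 held 17 or 1.14%, and chromosome 9 held 21 or 1.39%. This order depended on the cells used. A mid-S cell of the 4-cell stage with at least 90% of a chromosome replicated was found for chromosomes 1, 4, 5, 8, 11, 12 and 19, with 1 cell each. In 8-cell embryos there was 1 such cell each for chromosomes 9 and 11 and 2 for chromosome 19. On chromosome 19 that is the most cells in which the limit lets a bin be replicated, at each stage. Chromosome 4 was second highest with its 1 such cell, and chromosome 9 had 0 in 4-cell embryos. Without the cells that hold stretches of 40 Mb, chromosome 19 reached 7.71%, chromosome 11 reached 9.22% and chromosome 1, at 1.502% before, reached 8.18%. Chromosomes 12, 14 and 18 were then highest, with 15.8%, 15.2% and 14.96%, and chromosomes 17, 9 and 5 were lowest, with 5.85%, 7.08% and 7.08%. Chromosomes 18 and 9 kept their places among the 3 highest and 3 lowest in both counts.

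**Figure D1:**
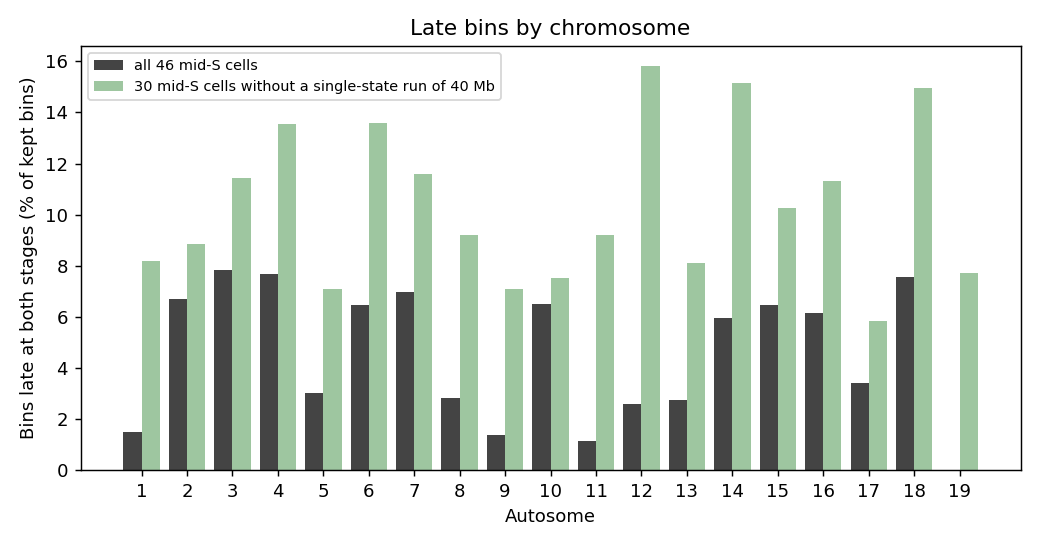
The share of kept 80-kb bins late at both stages (%, vertical axis) is plotted for each of the 19 autosomes, in black for all 46 mid-S cells and in green for the 30 cells without a single-state stretch of 40 Mb. Chromosome 19 goes from 0 to 7.71% and chromosome 12 from 2.59% to 15.8%, while chromosome 17 stays under 6% in both.

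Along the chromosomes the late bins were thinnest near the centromere. Mouse autosomes are telocentric, so build coordinates begin at the centromere side. In the first 10 Mb of the autosomes 47 of 2321 kept bins, or 2.02%, were late at both stages, against 96 of 2331, or 4.12%, in the last 10 Mb and 1251 of 24968, or 5.01%, elsewhere. The order was the same without the cells that hold long stretches, with 6.21%, 9.33% and 10.8%. These shares come from the values that chose the bins and carry no test.

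Adjacent late bins were joined into 334 domains. Their median length was 3 bins or 240 kb, 92 were a single bin and 63 had 2 bins. The 103 domains of at least 5 bins held 914 bins, 65.6% of the total, and the 8 domains of at least 20 bins held 193, or 13.8%. Every one of the 668 domain sides lay at a kept bin that missed the limit, so no domain was closed by missing calls or a chromosome end.

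**Figure D2:**
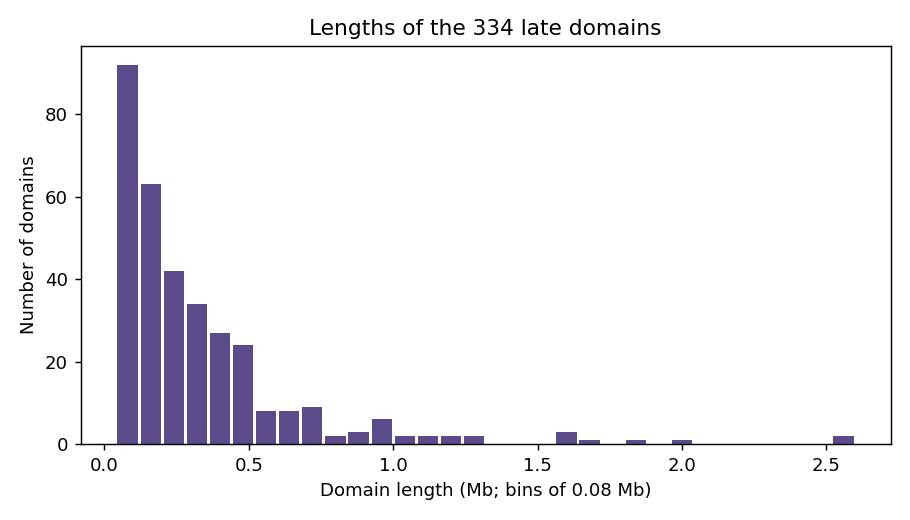
The number of domains (vertical axis) is plotted against domain length in Mb, in steps of 1 bin of 0.08 Mb. Single bins are the tallest bar with 92 domains, and the 2 longest reach 2.56 Mb.

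By the rule every late domain lies inside a run of bins late at the 8-cell stage, so that overlap is no result. The 6316 bins late at the 8-cell stage formed 890 runs, of which 267 held a late bin of both stages. Those 267 had a median length of 720 kb, against 320 kb for the 623 without one. A longer run has more bins that could be late at both stages, so this contrast is fixed in part by the rule. Only 52 runs were late at both stages over their whole length, and in the median run that held late bins they filled 50%. Of the 142 runs of at least 1 Mb, 83 held late bins.

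The 10 longest domains lay on chromosomes 2, 3, 4, 6, 7, 14 and 16, with 2 each on chromosomes 4, 6 and 7. The longest are chr7:76320001-78880000 and chr7:100880001-103440000, each of 32 bins or 2.56 Mb. Next in length were chr4:67440001-69440000 with 2.00 Mb, chr3:10880001-12720000 with 1.84 Mb and chr14:116480001-118160000 with 1.68 Mb. Then came 3 domains of 1.60 Mb, chr2:94720001-96320000, chr4:90480001-92080000 and chr6:104480001-106080000, and 2 of 1.28 Mb, chr6:79840001-81120000 and chr16:61120001-62400000. The ranking changed without the mid-S cells that hold long stretches. The longest domain was then chr4:66880001-69600000 with 2.72 Mb, of whose 34 bins 29 are among the 1394, and chr7:76320001-78960000 followed with 2.64 Mb and 32 such bins. Domains of chromosomes 8, 12 and 18 entered the 10 longest. Those of chromosome 12 held 6 and 7 of the late bins and that of chromosome 8 held 0. The genes and the sequence inside these domains were not analysed here, since the gene tables at hand are of another genome build than the coordinates.

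Late-S cells, with over 70% of called autosomal bins replicated, took no part in choosing the bins and show when they are copied. There were 9 such cells of 5 4-cell embryos and 15 of 8 8-cell embryos. In 5 of the 9 and 4 of the 15, at least 10 of the 19 autosomes were replicated to at least 98% or to at most 2%, so these cells have few borders between copied and uncopied DNA. All 9 of the 4-cell stage and 9 of the 15 of the 8-cell stage also hold a single-state stretch of 40 Mb. The tests over late-S cells are therefore given with and without the cells that are mostly of 1 state.

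At the 8-cell stage most of the late bins were still uncopied well into late S. In the 6 cells with replication scores of 71.7%, 72.8%, 75.2%, 75.5%, 76.98% and 81.8%, the late bins were replicated to 15.9%, 16.4%, 17.3%, 26.2%, 25% and 22.8%. Cells at 85.4% and 86.4% had copied 40.1% and 51.2% of them, and cells at 90.04% and 92.5% had copied 55.5% and 55.7%. So in these 10 cells the late bins were copied to 55.7% at most, also where over 90% of the autosomal bins had been. The 4 cells at 93.7%, 94.3%, 94.3% and 94.8% had copied 91.2%, 94.6%, 91.6% and 98.5% of the late bins, and all 4 are cells mostly of 1 state. A further cell of embryo 3 stood apart at a score of 87.7%. It had copied 93.2% of the late bins but 81.7% of the 3324 bins that were early at both stages, replicated in at least 90% of mid-S cells. Its longest single-state stretch was 12 Mb.

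Late-S cells of the 4-cell stage ranged as widely. The cells at 75.04% and 76.6% had copied 21.97% and 41.1% of the late bins, and those at 85.5% and 90.3% had copied 58.2% and 75.6%. The 5 cells mostly of 1 state, at 84.1%, 92.5%, 92.6%, 93.6% and 93.7%, had copied 85.2%, 89.4%, 89.4%, 96.3% and 95.5%. In both cells of 4-cell embryo 4, each of the 148 uncopied late bins lay on chromosome 2.

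**Figure D3:**
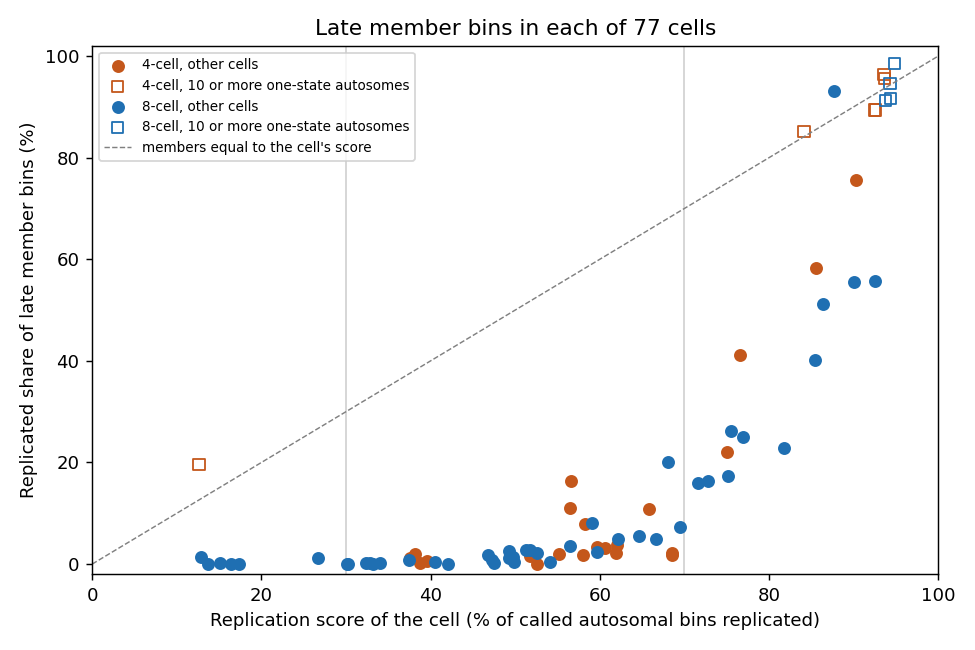
Each point is 1 of 77 cells, with its replication score (% of called autosomal bins replicated, horizontal axis) against the replicated share of the late bins (%, vertical axis). Open squares are cells with at least 10 autosomes of 1 state, grey lines bound the mid-S scores of 30 and 70% that chose the bins, and the dashed line marks equality. Filled points lie under the dashed line, except 1 cell of the 8-cell stage at 87.7%, and open squares lie near it.

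Averaged per embryo, the late bins were replicated less than the other bins in late-S cells of the 8-cell stage. The 8 embryos had copied 16.4%, 22.8%, 66.6%, 29.9%, 55.7%, 35.7%, 94.8% and 91.6% of the late bins (embryos 1 to 5, 7, 9 and 10). Their mean was 51.7% ± 30.5 (SD, n = 8), against 86.9% ± 7.08 for the other kept bins. The difference was -35.2 points ± 24.6 (SD, n = 8), below 0 in 7 of 8 embryos, and passed the threshold in a two-sided exact sign-flip permutation test over embryos (p = 0.0156, adjusted p = 0.0417 over the 8 tests of this kind run on the late bins). Without the cells mostly of 1 state the difference was -46.6 points ± 15.1 (n = 6, exact p = 0.0312), and with the odd cell of embryo 3 left out too it was -51.0 points ± 8.49. Of these 8 embryos 7 had also given mid-S cells to the choice of bins, and with the bins chosen anew without each embryo's own cells the difference was -34.7 points (exact p = 0.0156). The test could not pass with the 3 embryos that have late-S cells without a 40 Mb stretch (-34.6 points, exact p = 0.5) or with the 5 that have cells at scores up to 90% (-50.4 points, exact p = 0.0625). The p-values measure the spread between these embryos, and nothing in the labels says how many separate experiments they came from.

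The 4-cell stage gave the same direction without passing the test. The 5 embryos had copied 66.9%, 89.4%, 95.9%, 63.1% and 21.97% of the late bins (embryos 2, 4, 5, 6 and 12). The mean was 67.5% ± 29.1 (SD, n = 5), against 86.8% ± 7.05 for the other bins. The difference of -19.3 points ± 22.7 had an exact sign-flip p of 0.125 (adjusted p = 0.2), where 5 embryos can give no p below 0.0625. It was below 0 in 4 of 5 embryos. Embryo 12 is the only late-S embryo of the earlier batch and stood at -55.7 points, and the 4 of the later batch had a mean of -10.2 points. Without the cells mostly of 1 state 3 embryos were left, with -38.3 points ± 16.9 (exact p = 0.25). The 8-cell embryos had copied 15.8 points less of the late bins than the 4-cell embryos, which did not pass the test (p = 0.378, adjusted p = 0.432, by exact two-sided permutation of embryo labels). Within the later batch the stage difference was -27.2 points (exact p = 0.127), and without the cells mostly of 1 state it was -5.47 points (exact p = 0.702).

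Counted by bin, most autosomal bins had been copied in at least 50% of the late-S cells, and the late bins less often. At the 8-cell stage this held for 762 late bins, 54.7% of them, where 93.2% of all kept bins reached it. At the 4-cell stage it held for 1258, or 90.2%, where 96.9% of all kept bins did. Over the 15 late-S cells of both stages that are not mostly of 1 state, it held for 413 late bins, 29.6%, where 89.2% of all kept bins did.

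The bins late at the 8-cell stage but not at the 4-cell stage form the nearest comparison, with 4922 bins. In late-S cells of the 8-cell stage they were replicated to 62.7% ± 26.4 (SD, n = 8), and the late bins of both stages stood 10.98 points ± 9.60 lower. The difference was below 0 in 7 of 8 embryos (two-sided exact sign-flip permutation, p = 0.0156, adjusted p = 0.0417), and was -14.3 points ± 8.62 without the cells mostly of 1 state (exact p = 0.0312). Both sets had met the same limit at that stage, but they were not matched on their mid-S values below it. How far the late-S difference continues a mid-S difference was not tested. In 3 8-cell embryos with late-S cells that hold no stretch of 40 Mb the late-S difference was -3.21 points ± 4.25 (exact p = 0.5), a number of embryos at which the test cannot pass. The 523 bins late at the 4-cell stage alone were replicated to 68.0% ± 24.3 in late-S cells of that stage (n = 5). The late bins differed from them by -0.52 points ± 5.91 (exact p = 0.875, adjusted p = 0.875), with 2 embryos below 0 and 3 above, and by -5.48 points ± 7.77 in the 3 embryos with cells not mostly of 1 state. Bins early at both stages stood at 96.5% ± 4.64 in late-S cells of the 8-cell stage.

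Within the late domains the edges were copied ahead of the centres at the 8-cell stage. Over the 103 domains of at least 5 bins, the outermost bins were replicated to 54.4% and the middle bins to 48.6% in late-S cells. The difference of 5.82 points ± 5.51 (SD, n = 8) was above 0 in 8 of 8 embryos (two-sided exact sign-flip permutation, p = 0.00781, the smallest that 8 embryos can give, adjusted p = 0.0417). It ranged from 0.905 to 17.5 points, and was 10.7 points ± 10.8 over domains of at least 10 bins. It missed the threshold with bins chosen at a limit of 5% (5.51 points, exact p = 0.0625), and in the 3 embryos with cells without a 40 Mb stretch it was 1.99 points. Without the cells mostly of 1 state it was 7.37 points ± 5.55 (n = 6, exact p = 0.0312). At the 4-cell stage the difference was 3.62 points ± 5.55 (n = 5, exact p = 0.25, adjusted p = 0.333), above 0 in 4 of 5 embryos, and 8.33 points ± 5.89 in the 3 embryos with cells not mostly of 1 state. An edge bin lies by definition beside a bin that missed the limit. In the mid-S cells that chose the bins, edge bins already stood higher than bins 160 kb further in. The values were 4.64% against 3.56% at the 4-cell and 3.20% against 1.92% at the 8-cell stage. How far this way of cutting domains set the late-S difference was not tested.

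Longer domains were copied less far in the 8-cell late-S cells. As means over embryos, single late bins were replicated to 60.5%, domains of 2 to 4 bins to 57.9%, of 5 to 9 bins to 52.8%, of 10 to 19 bins to 51.1% and of 20 to 32 bins to 37.7%. In late-S cells of the 4-cell stage these classes differed less, with 70.1%, 69.9%, 65.6%, 68.3% and 63.4%. Longer domains were also later in the 8-cell mid-S cells that chose the bins, from 4.36% for single bins to 1.72% for 20 to 32 bins. Over the 15 late-S cells of both stages not mostly of 1 state, the same classes stood at 51.0%, 47.4%, 40.1%, 40.2% and 29.9%. Over the 103 domains of at least 5 bins, length and the replicated share at the 8-cell stage had a Pearson r of -0.346 and a Spearman rho of -0.294. The replicated shares of the same domains in 4-cell and in 8-cell embryos had a Pearson r of 0.0609 and a Spearman rho of 0.0661. Domains share their cells and neighbouring bins share calls, so these coefficients are descriptions without a test.

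The longest domains varied between single cells. The domain chr7:76320001-78880000 was wholly uncopied in 5 of the 6 8-cell cells with scores up to 81.8%, and copied to 25% in the other, at 76.98%. It stood at 46.9% and 34.4% in the cells at 85.4% and 86.4%, at 6.25% in the cell at 90.04% and at 0 in the cell at 92.5%. At the 4-cell stage it was copied to 6.25% and 9.38% in the cells at 75.04% and 76.6%, to 81.2% at 84.1%, and whole in the 6 cells from 85.5%. The second domain of chromosome 7, chr7:100880001-103440000, was at 0 in 5 of the same 6 cells and at 3.13% in the other, and reached 18.8% and 15.6% in the cells at 90.04% and 92.5%. In the 4 8-cell cells mostly of 1 state, at 93.7% to 94.8%, the first domain stood at 96.9%, 84.4%, 0 and 100% and the second at 50%, 87.5%, 0 and 100%. The cell of embryo 3 at 87.7% had copied 100% and 96.9% of them. Both domains were thus largely uncopied in the cells at 90.04% and 92.5%, and varied from 0 to 100% in those with higher scores. The value of 0 in both came from the late-S cell of embryo 10, in which all 117 late bins of chromosome 7 were uncopied. It is therefore not particular to these domains. The domain chr3:10880001-12720000 differed, with some bins copied in all 15 late-S cells of the 8-cell stage, from 4.35% at a score of 76.98% to the whole domain from 90.04% upward. Its means over embryos were 81.3% for the 4-cell and 66.6% for the 8-cell stage, the highest of the 10 at each. Over the 15 cells not mostly of 1 state its mean was 53.6%, against 28.5% and 24.8% for the domains of chromosome 7.

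**Figure D4:**
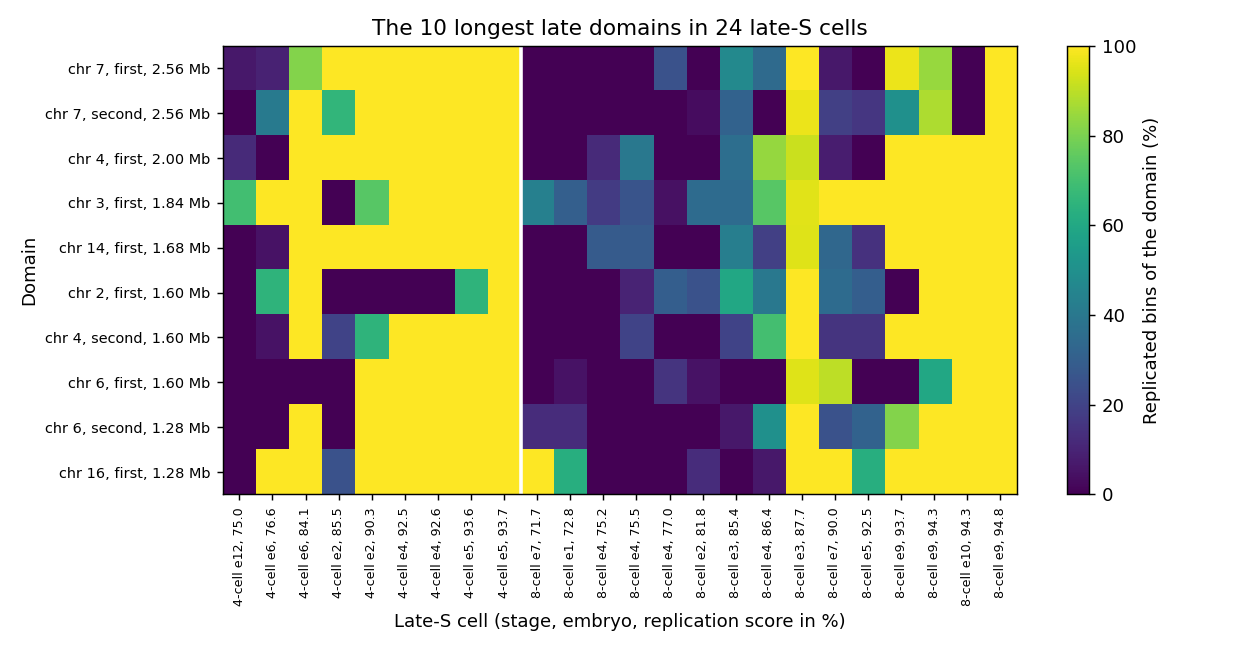
Rows are the 10 longest late domains, named by chromosome, order along it and length in Mb, and columns the 24 late-S cells (9 of the 4-cell stage left of the white line, 15 of the 8-cell stage right of it) in order of replication score within each stage. Colour gives the replicated share of the domain's called bins from 0 (dark) to 100% (yellow). Dark cells dominate the 8-cell side up to 81.8%, and the column at 87.7% is the cell of embryo 3 that stood apart.

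Among domains of at least 5 bins, the 5 copied least in late S, by the mean of the stage values, were 4 of chromosome 2 and 1 of chromosome 11. They are chr2:67040001-67760000 with 34.2%, chr2:123520001-124000000 with 37.5%, chr2:94720001-96320000 with 37.7%, chr2:147600001-148320000 with 39.7% and chr11:38160001-38560000 with 40.6%. The low 4-cell values on chromosome 2, from 33% to 42.2%, include both cells of embryo 4, in which all late bins of chromosome 2 were uncopied. They also include the cell of embryo 2 at 90.3%, in which 43.7% of the 332 uncopied late bins lay on chromosome 2. At the 8-cell stage, where these 4-cell embryos have no part, the 4 domains of chromosome 2 stood between 32.9% and 42.4%. The first of them was wholly copied in 0 of the 14 late-S cells not mostly of 1 state that called it. The 5 copied furthest were chr16:79280001-79760000 with 83.7%, chr3:135840001-136240000 with 81.4%, chr8:53040001-53440000 with 80.7%, chr6:75440001-76000000 with 78.1% and chr13:109440001-110400000 with 76.2%. These had reached at least 50% of their bins in 7 to 10 of the 14 or 15 such cells that called them, against 1 to 3 for the 5 copied least. Since the domains were ranked on these values, they are a description.

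Late bins made up a part of the uncopied DNA of late-S cells. They were 11.6% to 28.5% of the uncopied kept bins in 14 of the 15 cells not mostly of 1 state, where they are 4.71% of all kept bins, and 2.64% in the odd cell of embryo 3. In the 9 cells mostly of 1 state they were 1.39% to 7.63%, and 5 of these were under 4.71%.

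The DNA beside the 334 late domains was copied later than the kept bins as a whole. In mid-S cells the first bin outside was replicated to 10.7% in 4-cell and 6.40% in 8-cell embryos. At 400 kb from the edge the values were 20.4% and 16.0%, at 800 kb 31.2% and 27.5%, and at 2 Mb 40.5% and 35.6%, still under the 55.1% and 48.7% of all kept bins. The gradient outside the domains was thus gradual at both stages. Since the edge is where the limit was missed, the mid-S values nearest to it are fixed in part by the rule. Further out, some flanking bins were themselves late bins of other domains. These were 9.58% of the bins at 160 kb and 11.5% at 2 Mb, against 4.71% of all kept bins. How far they lowered the flank values was not tested. The late-S cells, which the rule did not use, gave 75.2% and 61.1% in the first bin outside and 82.1% and 80.1% at 2 Mb, against 87.1% and 85.0% over all kept bins. Over the 15 cells not mostly of 1 state the values were 50.4% in the first bin outside, 73.7% at 2 Mb and 81.6% over all kept bins.

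**Figure D5:**
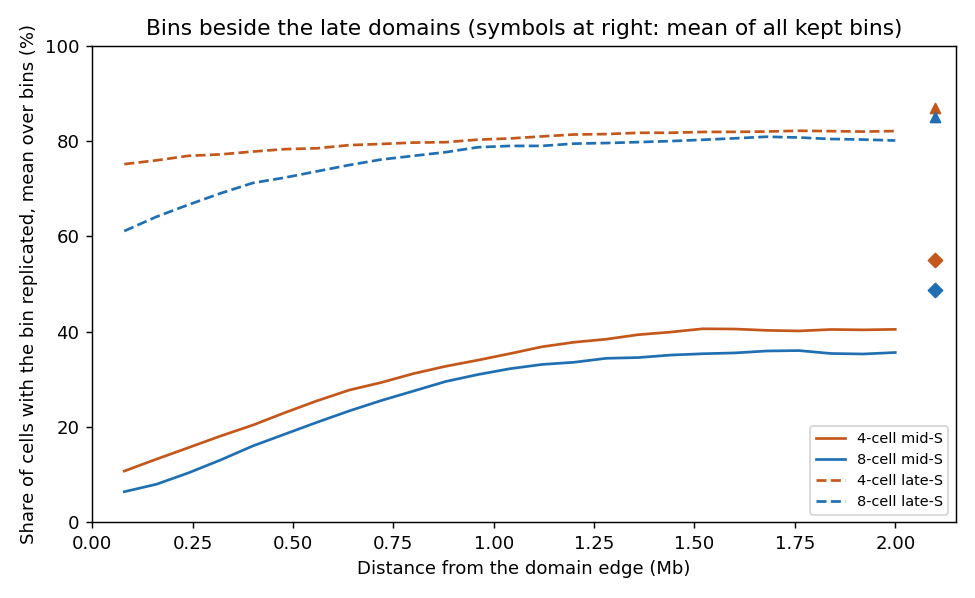
The horizontal axis is the distance from the edge of the 334 late domains in Mb and the vertical axis the share of cells in which a bin is replicated, as a mean over bins (%). Solid lines are mid-S and broken lines late-S cells, orange is the 4-cell and blue the 8-cell stage, and the symbols at the right are the means of all kept bins (diamonds mid-S, triangles late-S). All 4 lines rise away from the edge, level off and stay below their symbol at 2 Mb.

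Early-S cells, with scores under 30%, took no part in the choice either. In the 6 early-S cells of 4 8-cell embryos the late bins were replicated from 0 to 1.41%. The mean over embryos was 0.517% ± 0.559 (SD, n = 4), against 18.8% ± 6.26 for the other bins and 64.9% ± 14.05 for the bins early at both stages. The single early-S cell of the 4-cell stage, at a score of 12.6%, went the other way, with 19.5% of the late bins and 12.3% of the other bins replicated. In this cell 14 autosomes were replicated to at most 2%. Over the 5 embryos the difference was -13.2 points ± 12.5, below 0 in 4 of 5 (two-sided exact sign-flip permutation, p = 0.125, adjusted p = 0.2, smallest possible p 0.0625).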

How the data were processed

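The authors' deposited files hold 1 binary profile per cell (1, -1 or 0 for each 80-kb bin) and a table of annotations with the replication score (Repliscore), a percent of called autosomal bins in state 1, and a noise score (MAD score) per cell, per the file headers. Per the submitters' processing notes, coordinates are on mm9. For the aligner and the state caller, the sources used here give no name. All profile columns were matched to samples, and 0 were left over. Domains are runs of adjacent late bins, with no gap bridged. Named regions are the 10 longest domains, the 5 lowest and 5 highest in late S among those of at least 5 bins, and the 3 highest and 3 lowest chromosomes. Cell values were averaged per embryo and tested by exact sign-flip or label permutation, two-sided, with Benjamini-Hochberg adjustment over 8 tests, 2 of them (against bins late at 1 stage alone) added later. Leaving out cells mostly of 1 state, or the odd cell of embryo 3, and choosing the bins again without an embryo's own cells or without mid-S cells with long stretches were chosen after seeing the data. The bins and tests were chosen with earlier results of these data known. The X chromosome has no part in the choice. The scripts were tested on simulated data. Calculations ran in Python 3.11.15 with scipy 1.17.1, pandas 2.3.3 and numpy 2.4.6, and figures in matplotlib 3.10.9.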

Additional observations from a re-analysis of the deposited data

How the results depend on the processing

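The count of 1394 late bins moved most. It was 325 at a limit of 5%, 5152 at 20%, 3057 without cells with a single-state stretch of 40 Mb (754 at 5%), 4807 with the earlier and 679 with the later batch at the 4-cell stage, and 1399 to 2350 with 1 embryo left out. A limit of 5% lets no 4-cell mid-S cell replicate a bin in either count. The limit of 10% lets 1 of the 10 earlier-batch cells do so, and none of the 8 later-batch cells. The 5 mid-S cells of the 4-cell stage with a 40 Mb stretch were all of the later batch. Mid-S scores of 25 to 70% gave 1390 bins and bins called in every mid-S cell 948, while scores of 40 to 60% were not run, since 8 and 16 cells are under the call minimums.

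The 8-cell late-S difference from other bins stayed below 0 in all 20 alternatives, but missed the threshold in 3 embryos without cells with a 40 Mb stretch (-34.6 points) and in 5 embryos at scores up to 90% (-50.4 points), numbers at which the exact test cannot pass. The same settings gave 1.99 and 5.16 points for edge minus centre and -3.21 and -12.8 points against bins late at the 8-cell stage alone; edge minus centre was 5.51 points (p = 0.0625, exact) with bins chosen at 5%. Embryo 12, the only late-S embryo of the earlier batch, gave -55.7 points at the 4-cell stage and 12.2 points for edge minus centre. Against bins late at the 4-cell stage alone it gave -7.67 points. The only early-S embryo of that batch, 4-cell embryo 8, gave 7.26 points in early S. The difference from bins late at the 4-cell stage alone changed sign over cells in place of embryos (0.275 points), at 20% (0.0861 points), in the later batch (1.27), with bins chosen without long-stretch cells (2.95), and without embryo 6 (0.728) or 12 (1.27). The cause was not tested. No 4-cell late-S cell lacks a 40 Mb stretch, so that setting has no 4-cell value.

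With 1 embryo left out the late-S differences ranged from -24.8 to -10.2 points (4-cell) and -40.3 to -31.4 (8-cell), the stage difference from -27.2 to -8.66, edge minus centre from 1.47 to 4.97 and 4.14 to 6.52, the early-S difference from -18.3 to -9.80, and the differences from bins late at 1 stage alone from -2.25 to 1.27 (4-cell) and -12.7 to -8.46 (8-cell). The stage difference missed the threshold in every alternative that gave a test, with p from 0.073 to 0.702 (exact permutation). No paired analysis was possible because the labels give no number that pairs embryos of the 2 stages. Depth per cell is unknown, and the number of late-S embryos limits every test.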

Other observations

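The X chromosome, which the choice of bins left out, holds bins that met the same limits. Of 1892 X bins called in enough mid-S cells, 123 or 6.50% were late at the 4-cell stage, 197 or 10.4% at the 8-cell stage and 45 or 2.38% at both. The share late at the 4-cell stage was close to the 6.47% of autosomal bins, and the share late at the 8-cell stage was below the 21.3% of autosomal bins. The sex of the embryos is not given, and 1 or 2 copies of the X per cell were not told apart.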
